A study of Mus musculus with 35 samples.

Results

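The genes described here are those that load and display peptides on the major histocompatibility complex (MHC): B2m, H2-K1, H2-D1, Tap1, Tap2, Tapbp, Cd74, H2-Aa and H2-Ab1. Members were all probe sets to which the annotation of the Affymetrix MG-U74Av2 array gives only 1 of these 9 symbols, which makes 9 of 8251 genes named in this way and 16 probe sets of 12422 that are no array control. A further 3 probe sets carry a member's symbol together with others and were not used. Transcripts were amplified from very few mouse marrow cells and read on 35 arrays, to ask whether stem cell populations and even single stem cells can be told apart by what they express.

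Class I molecules stand on nearly every nucleated cell and show peptides made inside the cell to CD8 T cells. A heavy chain, here H2-K1 or H2-D1, pairs with β2-microglobulin, encoded by B2m. Peptides enter the endoplasmic reticulum through a transporter of 2 subunits, Tap1 and Tap2, and tapasin, encoded by Tapbp, holds the empty class I molecule to that transporter. Class II molecules, such as the pair of H2-Aa (α chain) and H2-Ab1 (β chain), show peptides from outside the cell and are typical of B cells, dendritic cells and macrophages. The invariant chain, encoded by Cd74, occupies their groove until they reach the compartment where peptides are loaded. Blood stem cells are known to carry class I.

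All samples were marrow cells of C57Bl/6 mice with no genetic change or treatment named in the labels. Mice were CD45.1 and aged 7 to 9 weeks, and marrow came from 1 mouse per experiment. SP cells are marrow cells that pump out the dye Hoechst and form a side population on the sorter; they were sorted as Sca-1+ Gr-1-, a gate rich in blood stem cells. LSP is the lower part of that region, with samples A, B and M, and USP the upper part, with samples N, O and Z. CD8 are CD3+ CD8+ T cells, with samples B, C and D. Each of these 9 samples was made from pooled amplifications of 10 cells and read on 2 arrays. A second experiment read 12 single SP cells, A to L, and 5 single-cell equivalents (SCE), A to E, which are aliquots of 1 lysate of 40 SP cells, on 1 array each. The SCE therefore carry technical spread but no differences between cells. By the paper, the single cells came from the lowest tip of the side population, so they do not stand for SP as a whole. It treats the SCE as the same population and names their source as SP cells. In ten-cell samples, more cells with a transcript and more of it per cell cannot be told apart. The labels do not tie samples to mice or days, so p-values measure the spread between these samples.

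Levels are log2 signals, so a difference of 1 is a doubling, and a level is comparable between samples for a probe set but not between probe sets. Ten-cell levels under 7 were set to 7, a floor near background, and a probe set counted as detected in a single cell or SCE at a level of at least 9. Of the 12 ten-cell SP arrays, 9 hold negative values and 3 (LSP sample B array 2 and both arrays of USP sample Z) hold positive values alone, as do all CD8 arrays, so this difference in the deposited values goes partly with the population. Leaving out the arrays with negative values leaves 1 LSP and 1 USP sample, so that the spread would be that of the 3 CD8 samples alone, and differences under this setting are given as values with no test. The gates showed in the markers: 8 or 9 of 11 T cell probe sets were above the floor in each CD8 sample against 0 to 2 in each SP sample, and 9 to 11 of 13 stem cell probe sets were above it in each SP sample against 0 or 1 in each CD8 sample. Of the 16 member probe sets, 14 were above the floor on 1 or more of the ten-cell arrays. H2-K1 97700_at and Tap1 162278_r_at were at the floor on all 18. Over the 126 pairs of duplicate arrays of the other 14, the median difference between the arrays was 0.14 and 3 pairs differed by more than 1.

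The letters before the start sites show what these genes have in common outside the arrays. Promoter sequences in RefSeq (build GRCm38.p6) were found for B2m, H2-K1, H2-D1, Tap1, Tapbp and H2-Aa. The H2-K1 window lies inside the longest annotated transcript of that gene, so it is counted below but not shown. B2m lies on chromosome 2, and the other 5 lie in the MHC on chromosome 17, as do Tap2 and H2-Ab1. Tap1 and Tapbp are shown because they hold the differences described later, and B2m, H2-D1 and H2-Aa because they hold the short letters shared by class I and class II promoters. Each stretch ends at the base before the start site and runs 5′ to 3′ on the gene's strand. Capitals mark CCAAT (bound by NF-Y), TGACG (a short core of the cyclic AMP response element), GAANNGAA (a core of interferon response elements) and GGATTCCC (a core of NF-κB sites), each searched on both strands. Some overlap: TGACG and its reverse share 2 letters in H2-Aa.
Tap1, chr17:34187306-34187555, plus strand: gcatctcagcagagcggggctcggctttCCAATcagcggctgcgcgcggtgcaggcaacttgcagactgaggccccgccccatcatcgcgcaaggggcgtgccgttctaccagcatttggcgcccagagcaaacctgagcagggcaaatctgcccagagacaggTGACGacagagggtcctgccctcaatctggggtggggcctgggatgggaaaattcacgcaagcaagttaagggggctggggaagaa
Tapbp, chr17:33919228-33919477, plus strand: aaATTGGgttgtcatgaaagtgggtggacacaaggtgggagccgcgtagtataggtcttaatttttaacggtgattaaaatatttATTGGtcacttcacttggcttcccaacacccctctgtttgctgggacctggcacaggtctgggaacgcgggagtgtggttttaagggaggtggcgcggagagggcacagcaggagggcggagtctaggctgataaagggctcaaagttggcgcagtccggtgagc
B2m, chr2:122147537-122147686, plus strand: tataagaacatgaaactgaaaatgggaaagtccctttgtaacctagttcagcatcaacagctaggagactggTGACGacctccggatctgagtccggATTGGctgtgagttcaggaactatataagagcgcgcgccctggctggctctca
H2-D1, chr17:35262914-35263093, plus strand: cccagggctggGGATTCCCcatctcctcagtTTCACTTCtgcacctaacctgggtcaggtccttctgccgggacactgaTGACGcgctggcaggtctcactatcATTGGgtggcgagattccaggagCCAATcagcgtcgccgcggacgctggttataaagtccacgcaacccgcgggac
H2-Aa, chr17:34287824-34287973, minus strand: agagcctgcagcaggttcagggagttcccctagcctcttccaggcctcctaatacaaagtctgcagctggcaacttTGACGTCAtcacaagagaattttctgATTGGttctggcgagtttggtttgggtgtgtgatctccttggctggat
In the 250 bases before the start, CCAAT stood in 6 of the 6 members' promoters and in 34.5% of 27025 promoters. TGACG stood in 5 of 6, all but that of Tapbp, and in 17.9% of all promoters. GAANNGAA and GGATTCCC each stood in the promoters of H2-K1 and H2-D1 alone among the 6, and in 17.3% and 0.851% of all promoters. Only these exact letters were searched, so a promoter without a match may hold other forms of such sites. The B2m stretch, for example, holds gaaactgaaa, where GAA repeats at a wider spacing, and this was not counted. The reverse of CCAAT began 25 bases after the start of TGACG in B2m, H2-K1 and H2-D1 and 26 bases after it in H2-Aa. A match is a description of the letters and not a bound site.

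B2m and the class I heavy chains were read in every ten-cell sample and did not pass the test in any comparison. B2m, which every class I molecule needs, had levels of 10.66, 10.51 and 10.91 in LSP A, B and M, 10.81, 10.92 and 10.46 in USP N, O and Z, and 10.20, 10.70 and 10.46 in CD8 B, C and D. The 3 populations overlapped. The SP mean was 10.71 ± 0.20 (SD, n = 6) and the CD8 mean 10.45 ± 0.25 (SD, n = 3), a difference of 0.26 with a 95% interval of -0.14 to 0.66 (limma, adjusted p = 0.518), so a difference of a doubling lies outside that interval.

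H2-K1 93120_f_at, a classical class I heavy chain, stood at 9.63, 10.50 and 10.38 in LSP, 9.41, 9.82 and 11.18 in USP and 9.72, 9.83 and 10.08 in CD8. H2-D1 97540_f_at, the other classical chain of this strain, stood at 8.84, 9.89 and 10.27 in LSP, 8.93, 9.53 and 10.64 in USP and 9.01, 8.98 and 9.49 in CD8. For both, USP Z was highest and the SP samples spread more widely than the CD8 samples on each side of them. Both arrays of USP Z hold positive values alone. H2-K1 93120_f_at read 10.94 to 11.19 on the 3 positive-only SP arrays and 9.32 to 10.63 on the 9 others, and within LSP B 10.94 against 10.05. H2-D1 97540_f_at read 10.05 to 10.68 on the 3 and 8.82 to 10.30 on the 9, and within LSP B 10.05 against 9.73. The part of the kind of values in this spread was not tested. The differences between SP and CD8 were 0.27 (SE 0.41) and 0.52 (SE 0.45), with adjusted p = 0.749 and 0.624. Probe sets ending in _f_at hold probes that match several members of a gene family, so these values may include other class I genes.

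The weaker class I probe sets varied near the floor. H2-K1 97125_f_at lay between 7.13 and 7.80 in all 9 samples. H2-D1 101886_f_at lay between the floor and 8.62 in SP and between 7.66 and 8.99 in CD8. H2-D1 97541_f_at was at the floor in all 3 CD8 samples and above it in 5 of 6 SP samples, with 9.10 in USP Z, 7.73 in LSP B and the floor in LSP A. Its difference of 0.76 (SE 0.38, adjusted p = 0.369) did not pass the test. Without the arrays that hold negative values this difference was 1.66 and that of H2-K1 93120_f_at was 1.18. The 3 positive-only SP arrays read 97541_f_at at 8.21 to 9.26 and the 9 others between the floor and 8.22.

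**Figure D1:**
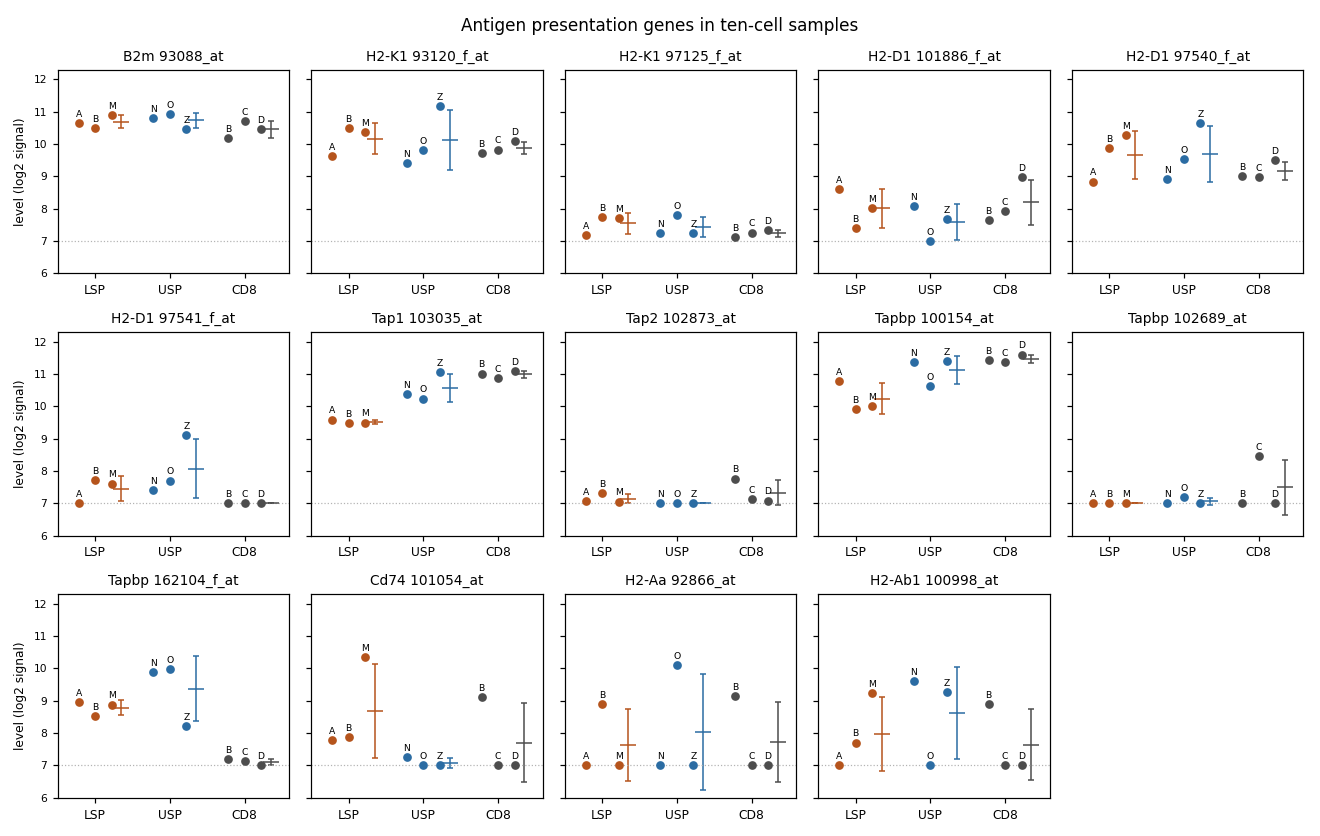
Levels (y axis, log2 signal) of the 14 member probe sets above the floor in the 3 LSP, 3 USP and 3 CD8 ten-cell samples; letters name samples, bars give mean ± SD and the dotted line is the floor of 7. Tap1 103035_at and Tapbp 100154_at are lowest in LSP. H2-Aa and H2-Ab1 are each high in some samples of a population and at the floor in others, and Cd74 is highest in LSP M and CD8 B.

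Tap1 was lower in SP than in CD8, and its LSP samples were lowest. Its probe set 103035_at stood at 9.59, 9.48 and 9.50 in LSP A, B and M, at 10.39, 10.24 and 11.04 in USP N, O and Z, and at 11.01, 10.86 and 11.09 in CD8 B, C and D. All 3 LSP samples were below all 3 USP samples, and USP Z lay within the range of CD8. The level differed by -0.95 in SP against CD8 (SE 0.18, adjusted p = 0.0312), 1.93-fold lower. The gap came to -1.47 for LSP against CD8 alone (adjusted p = 0.00202) and to -0.43 for USP against CD8 alone (adjusted p = 0.491). Without 1 of LSP A, LSP B, LSP M, USP N, CD8 B, CD8 C or CD8 D the adjusted p was 0.0533 to 0.116, and without USP O or USP Z it stayed under 0.05. Without the arrays that hold negative values the difference was -0.84.

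Tap2, the other transporter subunit, was at most 7.31 in LSP, no higher than the floor in USP, and at 7.76, 7.14 and 7.08 in CD8. Its difference between SP and CD8 was -0.26 (SE 0.17, adjusted p = 0.520), in values this close to the floor.

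The probe sets annotated to Tapbp, the tapasin gene, gave opposite readings. Whether the 3 of them read the same transcript was not checked, and 162104_f_at is of the kind that can match several genes of a family. Tapbp 100154_at stood at 10.78, 9.92 and 10.00 in LSP, 11.37, 10.62 and 11.39 in USP and 11.43, 11.35 and 11.60 in CD8, an order like that of Tap1. It was lower in SP by 0.78 (SE 0.26), which did not pass the test over all probe sets (adjusted p = 0.160). Without the arrays that hold negative values the difference was -0.87. Tapbp 162104_f_at stood at 8.96, 8.53 and 8.88 in LSP, 9.90, 9.99 and 8.22 in USP and 7.20, 7.13 and the floor in CD8. Every SP sample was above every CD8 sample, and SP was higher by 1.97 (SE 0.40, adjusted p = 0.0358), or 3.92-fold. Tapbp 102689_at was above the floor only in USP O, at 7.19, and CD8 C, at 8.47.

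The size of the difference for 162104_f_at moved with the kind of array values. Within LSP B, its array with negative values read 9.14 and its positive-only array 7.91. The 9 SP arrays with negative values read 8.50 to 10.01, the 3 others 7.91 to 8.34 and the CD8 arrays from the floor to 7.39. Without the arrays that hold negative values the difference was 0.95, in the same direction. The part of the kind of values in this difference was not tested. Without 1 of the samples LSP A, LSP B, LSP M, USP N, USP O, CD8 B, CD8 C or CD8 D the adjusted p was 0.0622 to 0.133, and without USP Z the difference was 2.26 (adjusted p = 0.000358).

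**Figure D2:**
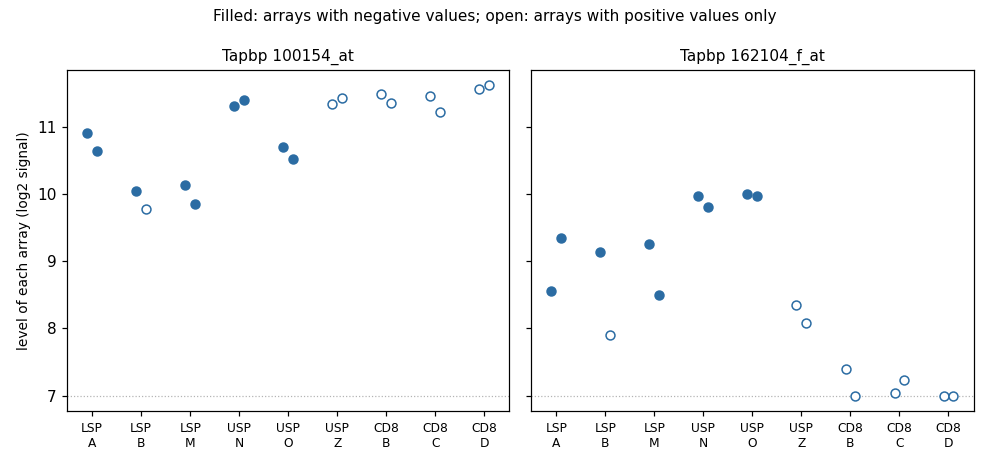
Level of each array (y axis, log2 signal) for 2 probe sets of Tapbp in the 9 ten-cell samples; filled points are arrays that hold negative values and open points arrays with positive values alone. The left probe set is lowest in LSP, and on the right the open SP points, at 7.91 to 8.34, lie between the filled SP points and the CD8 arrays.

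The class II genes were patchy from sample to sample. Cd74, the invariant chain, stood at 10.34 in LSP M, at 7.80 and 7.88 in LSP A and B, at 7.27 in USP N and at the floor in USP O and Z, and at 9.11 in CD8 B against the floor in CD8 C and D. H2-Aa, the α chain, was above the floor in a single sample of each population: 8.91 in LSP B, 10.11 in USP O and 9.14 in CD8 B. H2-Ab1, the β chain, stood at 9.23 in LSP M, 7.71 in LSP B, 9.61 in USP N, 9.26 in USP Z and 8.90 in CD8 B, and at the floor in LSP A, USP O, CD8 C and CD8 D. The 2 arrays of a sample differed by less than 1 in each case, so the patchiness lay between samples and not between arrays. Both arrays read the same amplified material, so differences of the cells and of their amplification cannot be told apart here. The α and β chains were above the floor together only in LSP B and CD8 B. The differences between SP and CD8 were 0.18, 0.12 and 0.67 for Cd74, H2-Aa and H2-Ab1, with SE of 0.72 to 0.93 and adjusted p of 0.736 to 0.958. That of Cd74 was -0.24 without LSP M and -0.17 without CD8 C or CD8 D, and that of H2-Aa was -0.20 without LSP B, -0.40 without USP O and -0.24 without CD8 C or CD8 D.

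CD8 B was the only T cell sample with any of the 3 class II transcripts. It also had B cell markers: Ms4a1, encoding CD20, stood at 12.78 there and at the floor in the other 8 samples, and Cd79a, a chain of the B cell receptor complex, at 9.56. Of the 14 B cell probe sets, 3 were above the floor in CD8 B against 0 to 2 in the other samples, with a summed signal of 9334 against 157 to 2256. USP O, the sample with the highest H2-Aa, had Cd79a at 8.88, the only other sample with it above the floor, and no Ms4a1. Cd79b, the other chain, did not go with class II: it was highest in CD8 C, at 10.94, where all 3 class II genes were at the floor. It stood at 10.12 in CD8 B, 9.85 in USP O, 9.57 in USP N, 9.11 in LSP B and 7.39 in USP Z, and at the floor in LSP A, LSP M and CD8 D. Of the B cell list, Pax5, Cd22, Ebf1, Blnk and Vpreb1 were at the floor in all 9 samples. Of the 13 probe sets for macrophages and dendritic cells, 0 were above the floor in CD8 B and CD8 C, 3 in CD8 D, where all 3 class II genes were at the floor, and 2 or 3 in each SP sample. The part of other cells in the class II levels was not tested.

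Across SP and CD8, 2 of the 14 member probe sets tested passed adjusted p under 0.05: 1 higher in SP (Tapbp 162104_f_at) and 1 lower (Tap1 103035_at). Over all 6823 probe sets tested, 5.83% passed in either direction. Of the 14, 1 had sample levels that did not overlap between SP and CD8, against 11.3% over all probe sets. The median difference was 0.21 over the 14 and 0.04 over all, and 9 of the 14 were above 0.

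**Figure D3:**
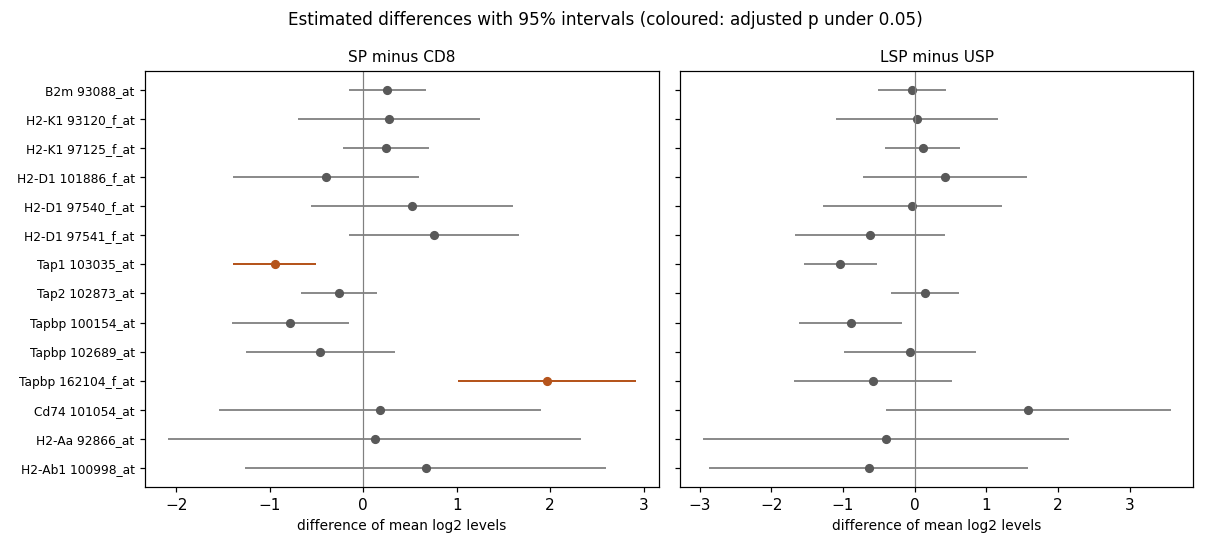
Difference of mean log2 levels (x axis) with 95% intervals for each member probe set tested, for SP minus CD8 on the left and LSP minus USP on the right; coloured points passed adjusted p under 0.05. Only Tap1 103035_at, at -0.95, and Tapbp 162104_f_at, at 1.97, are coloured, and the class II genes have the widest intervals.

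Between LSP and USP none of the 14 passed the test, against 0.103% of all probe sets (7 of 6823); by unadjusted limma p under 0.05, 2 of the 14 did, and 409 over all, and by the methods' t-test 1 of the 14 and 185 over all did unadjusted, and 0 of both adjusted. The 2 by limma were Tap1 103035_at, lower in LSP by 1.04 (SE 0.21, adjusted p = 0.269), and Tapbp 100154_at, lower in LSP by 0.89 (SE 0.30, adjusted p = 0.709). Tap1, Cd74 and Tap2 had sample levels that did not overlap between LSP and USP, which makes 3 of 14 against 5.98% of all probe sets. For Tap2 the LSP levels were 7.05 to 7.31 and all USP samples were at the floor, so its lack of overlap rests on values close to the floor. For Cd74 the lowest LSP level was 7.80 and the highest USP level 7.27, and the difference of 1.58 had an SE of 0.83 (adjusted p = 0.876). Without the arrays that hold negative values, Tap1 differed by -1.80 and Tapbp 100154_at by -1.61.

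Other genes of the pathway mostly did not pass the test. Of 30 other class I heavy chains and class I-like proteins 18 were on the array, and 7 of their 22 probe sets were tested, with 0 past the test in SP against CD8 and a median difference of 0.01. Of 15 genes that cut, carry or load class I peptides 11 were on the array; 0 of their 11 tested probe sets passed, with a median of 0.11. Of 17 other class II chains and class II loading genes 14 were on the array, and 1 of 12 tested probe sets passed, with a median of -0.34. Among 20 regulators of MHC genes 14 were on the array, and 0 of 12 passed, with a median of -0.01. Over all 6823 the median was 0.04. The single call was Ctsl, encoding cathepsin L, a protease that can trim the invariant chain. It stood at 8.17, 8.25 and 7.47 in LSP, 10.11, 8.89 and 9.17 in USP and at the floor in all CD8 samples, a difference of 1.68 (SE 0.30, adjusted p = 0.0235). No list had a call in LSP against USP.

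H2-DMa, a chain of the molecule that exchanges class II peptides, was above the floor in all 9 samples by its probe set 93092_at. It stood at 8.46, 10.05 and 11.51 in LSP, 8.81, 9.77 and 9.11 in USP and 10.76, 10.48 and 10.70 in CD8, so unlike Cd74, H2-Aa and H2-Ab1 it was read in every T cell sample. H2-Eb1, another β chain, was at most 8.76, in USP O. Ciita, the regulator that switches on class II genes, was at the floor in all 9 samples.

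In single cells, the brightest class I heavy chain probe sets were read in every cell and Tap1 was not. H2-K1 93120_f_at and H2-D1 97540_f_at were detected in 12 of 12 cells, at 10.84 to 12.17 (median 11.32) and 9.73 to 11.42 (median 10.95). Both were detected in 5 of 5 SCE, at 10.62 to 11.44 and 9.29 to 10.75. B2m was detected in 11 of 12 cells, at 8.01 in cell G and up to 11.70 in cell B, with a median of 10.41, and in 4 of 5 SCE, with 8.99 in SCE C. The other heavy chain probe sets were weaker: H2-D1 101886_f_at was detected in 4 of 12 cells, H2-K1 97125_f_at in 2, and H2-D1 97541_f_at and H2-K1 97700_at in 0.

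Tap1 103035_at was detected in 6 of 12 cells. It stood at 12.83, 12.23, 12.07, 11.72, 10.67 and 9.19 in cells G, B, H, E, A and J and between 4.39 and 8.75 in the others. In the SCE it stood at 9.70, 4.12, 11.96, 12.16 and 12.08, so SCE B, an aliquot of the same lysate, was as low as the lowest cells. Tapbp 100154_at was detected in 2 cells, E at 11.59 and I at 11.56, with the other 10 between 3.64 and 7.20, and in 3 SCE at 11.58, 10.04 and 10.80, with the other 2 at 4.19 and 5.33. Both genes thus had high and low readings among cells and also among aliquots of 1 lysate. For Tap1 some cells lay in between, with C at 7.99, K at 8.75 and J at 9.19. Tap2 was detected in 7 cells and 4 SCE, in narrow ranges of 8.15 to 9.89 and 8.57 to 9.43. In the ten-cell SP samples it was at most 7.31, lower than in any cell or SCE, and the cause of this gap was not tested. The count of cells with Tap2 turned on the detection level, with 12 cells at a level of 8 and 0 at 10. Tapbp 162104_f_at, the probe set called higher in ten-cell SP than in CD8 samples, was detected in 0 of 12 cells and 0 of 5 SCE. Its levels ran from 3.19 to 8.66 in the cells and from 5.24 to 8.49 in the SCE.

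Transcripts of Cd74, H2-Aa and H2-Ab1 were rarely read in single cells and mostly read in the SCE. Cd74 was detected in 1 of 12 cells, D at 10.60, with the others at 6.24 to 8.44, and in 5 of 5 SCE at 11.16, 11.57, 9.01, 9.93 and 10.60. H2-Aa was detected in cells A and E, at 10.01 and 11.26, with the others at 3.14 to 8.35, and in 4 of 5 SCE at 8.26, 10.94, 10.16, 11.82 and 10.25. H2-Ab1 was detected in 0 of 12 cells, at 5.64 to 8.17, and in 3 of 5 SCE at 9.50, 10.17, 5.13, 10.16 and 6.87. No cell had more than 1 of the 3 detected at the level of 9. At a detection level of 8, cell A had all 3, with Cd74 at 8.32, H2-Aa at 10.01 and H2-Ab1 at 8.17. Of the other class II genes, H2-DMa was detected in 6 of 12 cells and 4 of 5 SCE by 93092_at. By 162346_f_at it was detected in 5 cells and 3 SCE, and H2-Eb1 was detected in 0 cells and 2 SCE. The mean level in single cells minus that in SCE was -2.60 for Cd74 (SE 0.66), -4.49 for H2-Aa (SE 1.21) and -1.5 for H2-Ab1 (SE 0.74), with adjusted p = 0.308, 0.360 and 0.864. The 5 SCE are aliquots of 1 lysate, so this test of level does not measure the spread between lysates. A mean of log2 levels over unlike cells also lies below the log2 level of their pool. A negative value alone therefore need not mean less transcript in the cells. For H2-Ab1 the highest cell, at 8.17, was below SCE A, B and D, at 9.50, 10.17 and 10.16, and above SCE C and E. For Cd74 every cell but D was below the lowest SCE, at 9.01. The part of this averaging in the 3 differences was not tested. Of the 12 member probe sets tested 0 passed this test of level, against 0.0429% of 4659 probe sets; by an unadjusted limma p under 0.05, Cd74, H2-Aa and H2-D1 101886_f_at (the last 1.29 higher in cells) did, which makes 3 of 12, and 265 over all. B cell markers were not detected in the cells with class II: Ms4a1 was at most 6.64 and Cd79a at most 8.41 in the 12 cells, and Cd79b was detected in cell F alone. Ms4a1 was at most 5.42 in the SCE, where Cd79b was detected in SCE B at 11.71 and Cd79a in SCE E at 9.36. Of the 13 probe sets for macrophages and dendritic cells, 1 was detected in cell A, 1 in cell D and 0 in cell E. Over all 12 cells this count ran from 0 to 2, and in the 5 SCE from 1 to 2. The part of other cells in these class II readings was not tested.

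**Figure D4:**
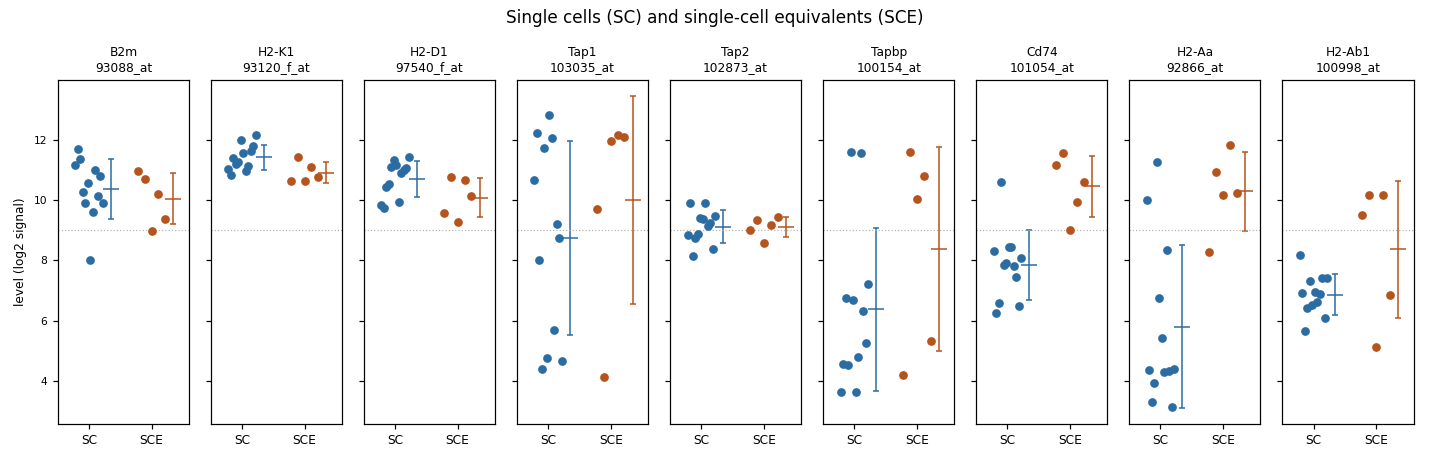
Levels (y axis, log2 signal) of 1 probe set for each member gene in 12 single SP cells (SC) and 5 single-cell equivalents (SCE); bars give mean ± SD and the dotted line is the detection level of 9. The plotted probe sets of B2m, H2-K1 and H2-D1 sit above 9 in nearly all arrays. Tap1 and Tapbp have both high and low readings in each group. Cd74, H2-Aa and H2-Ab1 are mostly under 9 in cells and mostly above it in SCE.

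The spread between single cells did not exceed that between SCE for any member by the test. Of the 16 probe sets 11 were detected in at least 1 cell and tested, and 0 passed (exact 1-sided permutation over 6188 splits of the 17 arrays, adjusted p of 0.483 to 0.777), against 0.546% of 4215 probe sets; by unadjusted p under 0.05 it was also 0 of the 11, and 525 over all. The largest ratio of spreads was that of H2-Aa, 2.19 (adjusted p = 0.566). The biological proportion is the share of the variance between cells that a likelihood model does not give to the technical spread of the SCE. It was 0.66 for Tap2, 0.32 for B2m, 0.26 for Tapbp 102689_at and 0 for the other 8 probe sets, so 1 of 11 reached 0.5, against 41.6% of 4215. These values turn on few arrays: that of Tap1 is 0 with all SCE and 0.89 without SCE B, that of B2m 0.58 without SCE C, and that of H2-Aa 0.79 where cells and SCE have separate means.

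Over the 9 ten-cell samples, Tap1 and Tapbp had Fam136a in common among the probe sets most like them. For Tap1 103035_at the nearest probe sets were those of Trappc1 (Pearson r = 0.96) and Fam136a (r = 0.94), and for Tapbp 100154_at those of Vps28 (r = 0.96) and Fam136a (r = 0.95). B2m was most like Srgn (r = 0.96) and Spcs2 (r = 0.94). H2-D1 97540_f_at was most like the ribosomal gene Rps4x (r = 0.97) and Naca (r = 0.97), and H2-K1 93120_f_at most like Rrbp1 (r = 0.95) and Gas5 (r = 0.94). H2-Aa followed Strap (r = 0.99), H2-Ab1 followed C1ra (r = 0.99), Cd74 followed Cox8c (r = 0.96) and Tap2 followed Ttc4 (r = 0.99). These are the highest of 6105 probe sets over 9 samples from 3 populations, and serve as a description alone.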

How the data were processed

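The authors deposited 1 table of signal intensities on a linear scale for 35 arrays, each scaled to a 2% trimmed mean of 250. The methods name log2 RMA levels, which these intensities are not, since 24.5% to 32.1% of values are below 0 on 9 of the 12 ten-cell SP arrays and none is on the remaining 26. Levels are log2 of the deposited intensity, with ten-cell levels floored at 7 and duplicate arrays averaged. The floor of 7 and the detection level of 9 were taken from earlier work on these data, which chose them after values were seen and against the calls of the study. Of 12488 probe sets, 66 controls were left out. Genes were named from the annotation of the array, an old one, and 10833 probe sets had 1 symbol. limma 3.58.1 in R 4.3.3 fitted 1 mean per population over the 6823 probe sets that exceeded the floor on any array, and single cells against SCE over 4659. Spread, proportion and likeness were computed in Python 3.11.15 with numpy 2.4.6 and pandas 2.3.3. Adjusted p-values are Benjamini-Hochberg values over all probe sets tested. The limma fits, the test of spread and the biological proportion were tried on simulated data, and the other steps were not. Alternatives were other floors, filters, detection levels and normalization, arrays left out, samples left out, and the array number as a block. Members, lists and named genes were chosen by rule with earlier results of these data known: all members, list genes past the test, H2-DMa, H2-Eb1, Ciita and the 2 most like probe sets of each member gene. Promoters are those of RefSeq. The number of arrays limits the precision.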

Additional observations from a re-analysis of the deposited data

How the results depend on the processing

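The 2 member calls in SP against CD8 became 1 with a floor of 8, 0 with no filter on low levels, 1 with probe sets above the floor in at least 3 samples, 5 without the arrays that hold negative values (where only the 3 CD8 samples give the spread, and say nothing of that within SP), 0 with all arrays and the sample as a random block, 0 with USP and CD8 fitted alone and 0 by the methods' t-test after Benjamini-Hochberg adjustment. With each sample left out in turn the count ran from 0 to 2. With the array number as a replicate block on all arrays it was 0, and Tap1 103035_at then had an adjusted p of 0.161 and Tapbp 162104_f_at one of 0.135. The array number does not pair the samples: the correlations of the array deviations between populations were 0.09, -0.04 and -0.03. In LSP against USP the count of 0 became 3 without the arrays that hold negative values (likewise), and 1 by the methods' t-test unadjusted. The count of biological proportions of at least 0.5 went from 1 to 2 with separate means and 2 by moments, and ran from 1 to 2 with each SCE left out. Member probe sets detected in a single cell were 11, with 14 at a detection level of 8 and 7 at 10.

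No called difference changed sign. In SP against CD8, with each sample left out, H2-D1 101886_f_at ran from -0.66 to 0.0025, Tapbp 102689_at from -0.70 to 0.032, Cd74 from -0.24 to 0.88 and H2-Aa from -0.40 to 0.84. Cd74 was -0.23 without the arrays that hold negative values and -0.61 with USP and CD8 fitted alone, and H2-Aa was -0.0787 with LSP and CD8 fitted alone. In LSP against USP, B2m ran from -0.17 to 0.0587, H2-K1 93120_f_at from -0.33 to 0.55, H2-D1 97540_f_at from -0.42 to 0.44 and H2-Aa from -1.04 to 0.64. Without the arrays that hold negative values these were 0.0669 for B2m, -0.24 for H2-K1 93120_f_at and 1.73 for H2-Aa, and with a floor of 8 H2-K1 97125_f_at was -0.0132. In single cells against SCE, Tap2 ran from -0.13 to 0.0883 and Tapbp 102689_at from -0.12 to 0.49. The log2 ratio of spreads ran from -0.18 to 0.48 for B2m, -0.10 to 0.93 for H2-K1 97125_f_at, -0.57 to 0.10 for H2-D1 101886_f_at, -0.44 to 0.14 for H2-D1 97540_f_at, -0.71 to 0.17 for Tapbp 100154_at, -0.24 to 0.28 for Tapbp 102689_at and -0.28 to 0.50 for Cd74. With a floor of 7 it was 0.23 for H2-D1 101886_f_at, -0.24 for Cd74 and -0.27 for H2-Aa, and with quantile normalization -0.17 for B2m and -0.21 for Cd74. The causes were not tested.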
